A study of Homo sapiens with 4 samples.

Results

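SNORD1A, SNORD1B and SNORD1C are the C/D box small nucleolar RNAs (snoRNAs) that lie in the long noncoding RNA gene SNHG16 on chromosome 17. The family was chosen by its host gene and on its abundance, since SNORD1B had the highest mean level of any C/D box snoRNA in these libraries. Its 3 members were found among 7062 listed small RNA features, of which 474 carried the symbol of a C/D box snoRNA and 280 of those had a count. The class was set by symbol, so RNAs with other symbols, such as snoU2_19, are outside it throughout. All 3 members passed the filter on low counts, as did 187 C/D box snoRNAs and 1480 features in all.

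Small RNAs were sequenced from HEK293T cells (given as HEK293 in some labels), a human embryonic kidney line, after transient transfection with a plasmid for a form of the RNA polymerase II (Pol II) C-terminal domain of 52 repeats. In 52X WT the domain was wild type. In 52X T4A the threonine at the fourth place of the repeat is replaced by alanine, as the usual notation for a substitution gives it. Wells received 1.5 µg of plasmid, and from the next day both groups were kept for 72 h in 2.5 µg/ml α-amanitin, a Pol II toxin that per the labels removes cells without the plasmid. Each group had 2 libraries of 50-base single reads, called biological replicates, and the series had no untransfected or untreated cells. Whether the replicates came from separate cultures is not stated, and p-values measure only the spread between these libraries. Which promoter drives the plasmids is not given in the sources used here.

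The counts assigned to features ranged from 16180790 to 27370127 per library. The deepest was 52X T4A replicate 2. C/D box snoRNAs, as classed by symbol, took from 3.75% to 4.94% of counts. The line was described with 10 miRNAs listed for it, which all had counts. Scaled by library size and by TMM factors, their sum ran from 236168 to 282460 CPM, which is not a share of all counts. Most of this sum was MIR10A and MIR10B, at 98278 and 94939 CPM in 52X T4A replicate 1. These 2 were close in every library, and whether they share reads was not tested. MIR19A, MIR18A and MIR96 were at only 45.0, 47.8 and 88.3 CPM in that library. Having counts does not set the line apart, since the liver, blood and muscle miRNAs below had counts too. The liver miRNA MIR122 was at or below 0.948 CPM and the blood miRNAs MIR142, MIR223 and MIR451A summed to at most 1.52 CPM. All 6 listed muscle miRNAs had counts, and their sum was 30.5 and 33.1 CPM with WT but 96.7 and 81.6 CPM with T4A, nearly all of it from MIR1-1 and MIR1-2. The part of this difference in the results below was not tested. In such bulk samples fewer cells of a type and less RNA per cell cannot be told apart.

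Most human C/D box snoRNAs are released from introns of a host transcript, while a few, such as U3 and U8, have promoters of their own. They assemble with the methyltransferase fibrillarin and its partners NOP56, NOP58 and SNU13, and many guide methylation of riboses in ribosomal RNA. The C box near the start and the D box near the end bind the proteins, and a stretch of bases just before the D box or an inner D′ box pairs with the target. The methylated ribose lies opposite the fifth base before that box. The SNORD1 RNAs are known as guides for a site in the RNA of the large ribosomal subunit.

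The sequence of SNORD1B is shown because this RNA carried most of the family's reads. It was read by its identifier (ENSG00000199961.1) from the GENCODE v44lift37 transcripts. In the first line the capitals mark the C box, the D′ box and the D box, which start at bases 9, 33 and 74. In the second line they mark the 12 bases before the D′ box, at bases 21 to 32.
SNORD1B boxes: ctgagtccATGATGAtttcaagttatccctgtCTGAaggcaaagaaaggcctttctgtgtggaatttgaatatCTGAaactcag
SNORD1B guide: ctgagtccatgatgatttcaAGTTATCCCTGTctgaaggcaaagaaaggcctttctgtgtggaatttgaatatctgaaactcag

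The first and last 6 bases of SNORD1B are complementary, as in the closing stem of a C/D box snoRNA. Bases before the D′ box were taken for as long as their exact complement occurred in the unplaced contig GL000220.1, which carries ribosomal RNA genes. This set the length of the 12 capital bases, so a match on this contig was fixed by the choice and tests nothing. The exact complement of the 12 bases lies at 2 places on the plus strand of the contig. These run from 117735 to 117746 and from 161707 to 161718 (GRCh37), with the same bases on both sides. The site is shown with its capitals marking the complement.
Site on the contig: aaagttaccACAGGGATAACTggcttgtgg

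A stretch of 12 bases is short, and on both strands of the GRCh37 primary assembly it occurred 331 times, so the match is a description and not a mapped target.

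The sequences of SNORD1A and SNORD1C could not be read in the same way. A second stretch with a guide of the family was however found in 3 GENCODE transcripts of SNHG16 that retain an intron. It shares a run of 18 bases with SNORD1B, in capitals below, and the run holds the whole of the 12-base guide and the D′ box.
SNHG16 retained intron: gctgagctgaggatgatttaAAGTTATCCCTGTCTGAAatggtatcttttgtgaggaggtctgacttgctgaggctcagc
SNORD1B shared run: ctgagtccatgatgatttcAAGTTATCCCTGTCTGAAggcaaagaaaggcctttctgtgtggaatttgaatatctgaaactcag

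Between the ends of its closing stem of 7 base pairs this stretch is 80 bases long, which is also the length that RefSeq gives for SNORD1C. Whether it is SNORD1C was not tested. Of 254412 other GENCODE transcripts searched, 3 held a run of 18 bases of SNORD1B, and all 3 were of SNHG16. In the counts no other feature came within 2% of a member in all 4 libraries, as copies that share all their reads would.

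The positions of the RNAs are those of the deposited tables, in hg38, all on the plus strand of chromosome 17. SNORD1C (ENSG00000274091.1) lies from 76558791 to 76558868 and is 78 bases long. SNORD1B lies from 76561109 to 76561192 and is 84 bases long. SNORD1A (ENSG00000278261.1) lies from 76561634 to 76561705 and is 72 bases long. In RefSeq (GRCh38.p14) SNHG16 runs from 76557764 to 76565348, so the RNAs start 1027, 3345 and 3870 bases into the host, with 2240 bases between SNORD1C and SNORD1B and 441 between SNORD1B and SNORD1A. No other listed feature lay within 50 kb. In GENCODE v44lift37 (GRCh37), where SNORD1B lies from 74557191 to 74557274, the RNA was intronic in all 17 SNHG16 transcripts that span it, and in 16 of them the next exon began after 95 bases. All members are longer than a 50-base read, so a read covers a part of the RNA, and whole RNAs and fragments cannot be told apart in the counts.

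The promoter at the RefSeq start of SNHG16 is shown because the members share this host. Whether all transcripts that carry a member start there was not tested. The sequence is that of RefSeq at chr17:76557514-76557813 (GRCh38.p14, plus strand), with 250 bases before the start in lower case and the first 50 bases of the transcript in capitals.
SNHG16 promoter: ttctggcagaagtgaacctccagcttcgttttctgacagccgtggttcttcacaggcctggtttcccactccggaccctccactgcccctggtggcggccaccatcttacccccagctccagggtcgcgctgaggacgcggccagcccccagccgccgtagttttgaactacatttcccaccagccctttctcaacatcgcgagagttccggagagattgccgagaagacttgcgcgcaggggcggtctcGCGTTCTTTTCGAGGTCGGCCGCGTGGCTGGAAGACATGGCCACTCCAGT

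Of its bases 61.7% are G or C, against a median of 58.67% over 35116 promoters of the same length. The letters TATAAA, searched on both strands, were not in this window, and 11.53% of those promoters held them.

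The levels of the members in the cells were described first. SNORD1B was at 13620 and 8344 CPM in 52X T4A replicates 1 and 2 and at 11954 and 10528 CPM in 52X WT replicates 1 and 2, scaled by library size and by TMM factors. It was the most abundant of the 474 C/D box snoRNAs and the 19th most abundant of all features. At a mean of 11112 CPM it stood 3.48-fold above SNORD43, the next RNA of the class as set by symbol, at 3191 CPM. The feature snoU2_19, outside that class, was at 2829, 2958, 5710 and 2348 CPM in the same order of libraries. The distance to the next RNA and the lower ranks therefore hold for the class as set by symbol only. The others at the top were SNORD69, SNORD30, SNORD57 and a feature named SNORD81 that lies outside the host GAS5, at 2826, 2148, 1925 and 1878 CPM. No name was found for 552 features, which could therefore not be ranked as C/D box snoRNAs. These ranks are what the family was selected on and were not tested.

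In the same order of libraries, SNORD1C was at 244, 159, 399 and 251 CPM. SNORD1A was at 215, 148, 521 and 174 CPM. Both were far from the top, at rank 31 for SNORD1A and 32 for SNORD1C among the C/D box snoRNAs. Their order is not firm, since SNORD1A was above SNORD1C in 1 library and below it in 3.

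Levels were compared between the members per length, as mean CPM per 100 bases over the 4 libraries. This level was 13228 for SNORD1B, 367 for SNORD1A and 338 for SNORD1C, and SNORD1B was again the highest C/D box snoRNA. Per base SNORD1B had 19.7 to 54.3 times the counts of SNORD1A and 27.8 to 51.8 times those of SNORD1C within a library. The ratio per base of SNORD1A to SNORD1C lay on both sides of 1 and was 0.954 and 1.01 in 52X T4A and 1.41 and 0.75 in 52X WT.

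**Figure D1:**
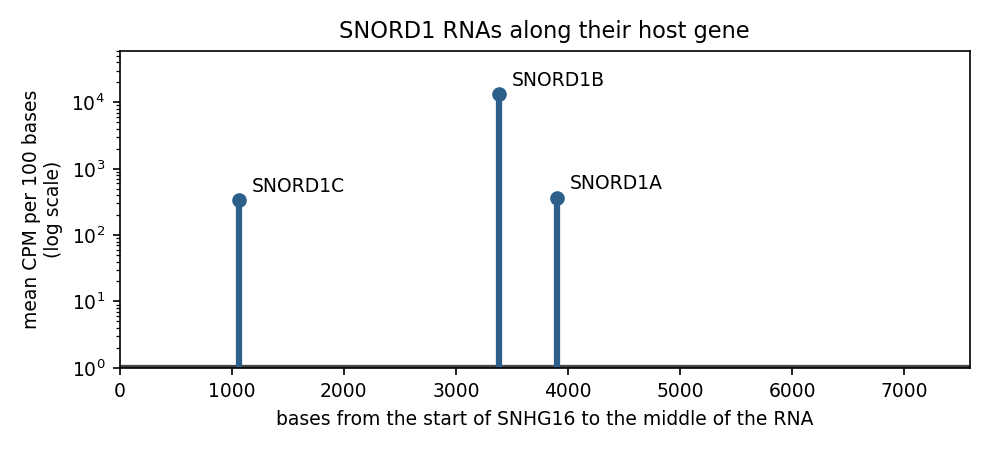
Mean level of each SNORD1 RNA, in CPM per 100 bases on a log scale, against the distance in bases from the start of SNHG16 to the middle of the RNA. SNORD1B, in the middle of the host, stands at 13228 and the RNAs on either side of it at 338 (SNORD1C) and 367 (SNORD1A).

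SNORD1B took a large part of the counts of C/D box snoRNAs as classed by symbol, which leave out snoU2_19. Its share was 28.3% (95% Wilson interval 28.2% to 28.4%) and 23.1% (23.0% to 23.2%) in the 52X T4A libraries and 21.8% (21.7% to 21.9%) and 27.6% (27.5% to 27.7%) in the 52X WT libraries, in the order of replicates 1 and 2. The intervals cover counting error only, because reads without molecular identifiers are not independent molecules. The libraries of the groups overlapped in this share.

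Within the family, SNORD1B held 96.7% and 96.5% of the counts in 52X T4A and 92.9% and 96.1% in 52X WT. SNORD1A held 1.53% and 1.71% in 52X T4A and 4.04% and 1.59% in 52X WT. SNORD1C held 1.73% and 1.84% in 52X T4A and 3.1% and 2.29% in 52X WT. In 3 libraries SNORD1A therefore took nearly the same part of the family, and 52X WT replicate 1 stood apart with the largest parts of both SNORD1A and SNORD1C.

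The comparison of 52X T4A with 52X WT asks whether the loss of the threonine changes the level of these snoRNAs. None of the 3 members was called by edgeR's quasi-likelihood test at a Benjamini-Hochberg adjusted p under 0.05 and a fold change over 1.5. In this test 2 features of 1480 were called, which is 0.135% of those tested. At an unadjusted p under 0.05 there was again no member, against 152 features (10.3%). DESeq2 called none of the members either, where it called 30 features (2.03%). At an unadjusted p under 0.05 it held SNORD1A alone of the 3, against 8.72% of features.

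No difference between the groups was detected for SNORD1B. Its counts were 215572 and 263462 in 52X T4A and 174437 and 198191 in 52X WT, and it averaged 10982 ± 3730 CPM with T4A against 11241 ± 1008 CPM with WT (SD, n = 2). The 52X T4A libraries lay on either side of both 52X WT libraries. Its log2 fold change was −0.034 ± 0.25 (SE), with a 95% interval of −0.59 to 0.52 and an adjusted p of 0.981 in edgeR's test. The sign is not firm, since it turned to 0.12 when the libraries were scaled by their size alone. Under that scaling the median over the 1480 features was 0.14, where it had been −0.045, and SNORD1B was close to the median both times.

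SNORD1C was lower in both 52X T4A libraries than in either 52X WT library, by a narrow margin. Its counts were 3862 and 5026 in 52X T4A and 5821 and 4725 in 52X WT, and it averaged 202 ± 60.0 CPM with T4A against 325 ± 105 CPM with WT (SD, n = 2). The nearest libraries of the groups were 52X T4A replicate 1 at 244 CPM and 52X WT replicate 2 at 251 CPM. Of all tested features 21.2% were lower in 52X T4A without overlap, as 1 of 3 members was here. Its log2 fold change was −0.69 ± 0.31 (SE) with a 95% interval of −1.39 to 0.01, and the adjusted p of edgeR's test was 0.467.

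SNORD1A had the largest fold change of the family and the largest spread. Its counts were 3400 and 4667 in 52X T4A and 7597 and 3273 in 52X WT, and it averaged 181 ± 47.4 CPM with T4A against 347 ± 245 CPM with WT (SD, n = 2). The groups overlapped, as 52X WT replicate 2 lay between the 52X T4A libraries and only 52X WT replicate 1 was above them. Its log2 fold change was −0.94 ± 0.45 (SE) with a 95% interval of −1.94 to 0.06, and the adjusted p of edgeR's test was 0.467.

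**Figure D2:**
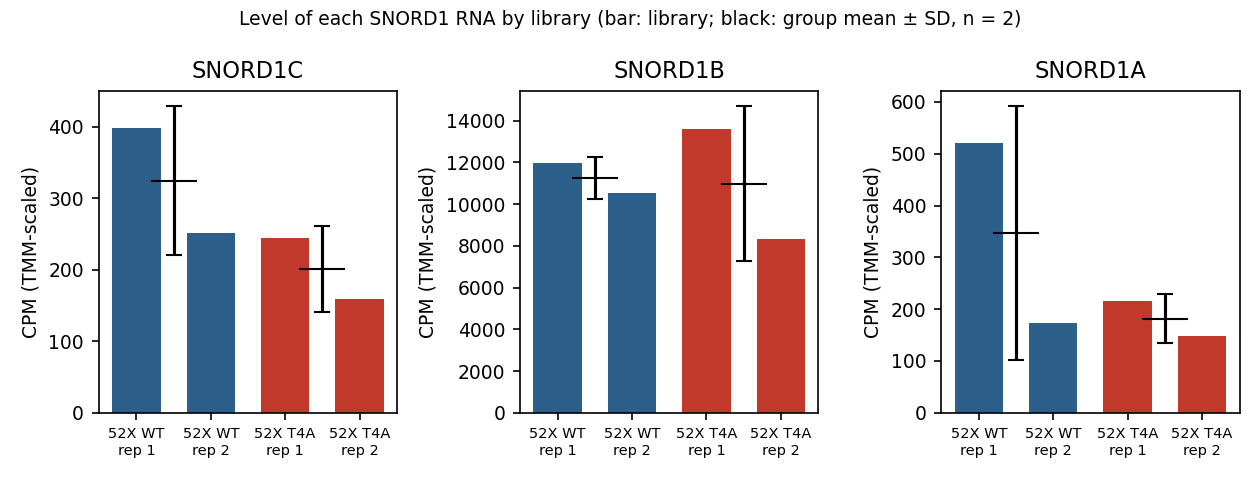
Level of SNORD1C, SNORD1B and SNORD1A in each library, as bars in TMM-scaled CPM on axes that start at 0, with 52X WT in blue and 52X T4A in red. Black marks give the group mean ± SD (n = 2), and 52X WT replicate 1 is the highest library for SNORD1A (521 CPM) and SNORD1C (399 CPM) but not for SNORD1B.

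The fold change of SNORD1A rested on 52X WT replicate 1. When this library was left out, the log2 fold change of SNORD1A was −0.048 and that of SNORD1C was −0.43, with adjusted p-values of edgeR's test of 0.987 and 0.674. When 52X WT replicate 2 was left out instead, both members were called, at −1.52 (adjusted p 3.785e-05) and −0.98 (adjusted p 0.01498) in the same test. In that fit 218 of 1570 features were called, and the group of 52X WT held 1 library. Without 52X T4A replicate 1 the values were −1.24 and −1.04, and without 52X T4A replicate 2 they were −0.68 and −0.40, and neither member was called. SNORD1B moved from −0.45 without 52X T4A replicate 1 to 0.29 without 52X T4A replicate 2.

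**Figure D3:**
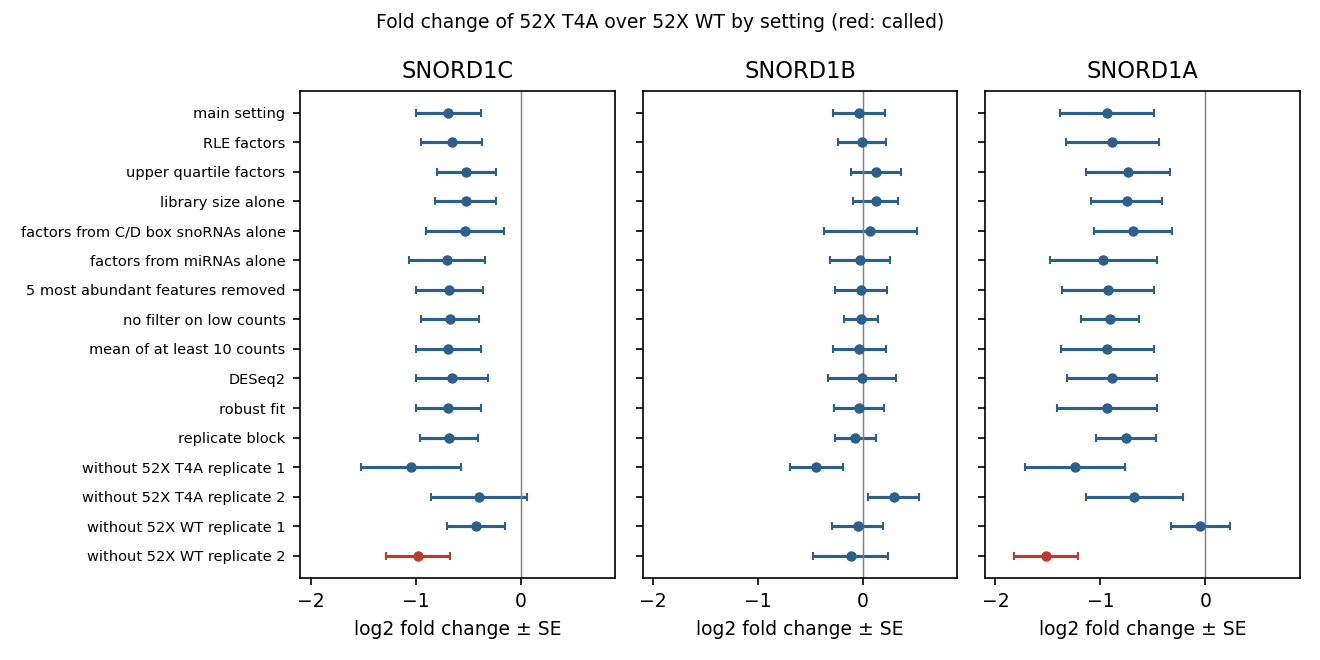
Log2 fold change of 52X T4A over 52X WT for SNORD1C, SNORD1B and SNORD1A under each setting of the test, with the standard error as a bar and called values in red. SNORD1A and SNORD1C are called only in the fit that leaves out 52X WT replicate 2, SNORD1A sits at −0.048 when 52X WT replicate 1 is left out, and SNORD1B stays between −0.45 and 0.29.

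The spread between the 52X WT replicates was set beside that of the other C/D box snoRNAs with a mean of at least 100 counts, of which there were 142 with the members. The log2 ratio of 52X WT replicate 1 to replicate 2 was 1.58 for SNORD1A, 0.67 for SNORD1C and 0.18 for SNORD1B. The median over the 142 RNAs was 0.61, with a range from −1.54 to 2.99. Only 14 RNAs had a higher ratio than SNORD1A, 66 had a higher ratio than SNORD1C and 110 had a higher ratio than SNORD1B. Most C/D box snoRNAs were thus higher in 52X WT replicate 1, SNORD1C was near their middle and SNORD1B moved little. Between the 52X T4A replicates the order was different. The log2 ratio of replicate 1 to replicate 2 was 0.71 for SNORD1B, 0.62 for SNORD1C and 0.54 for SNORD1A, against a median of 0.25, and 8, 16 and 26 RNAs were higher.

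The members were then compared within a library, where the scaling has no part. The log2 ratio of SNORD1B counts to SNORD1A counts was 5.99 and 5.82 in 52X T4A and 4.52 and 5.92 in 52X WT. The mean difference of 0.68 was smaller than the SD of 0.99 between the 52X WT libraries, and 52X WT replicate 2 lay between the 52X T4A libraries (exact two-sided permutation test, p = 0.667). This difference was −0.017 when 52X WT replicate 1 was left out, and 1.38 when replicate 2 of that group was.

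The log2 ratio of SNORD1B to SNORD1C was 5.80 and 5.71 in 52X T4A and 4.91 and 5.39 in 52X WT. Both 52X T4A libraries were above both 52X WT libraries, with a mean difference of 0.61 against SDs of 0.064 and 0.34. The exact two-sided permutation test gave p = 0.333, the smallest p that 2 libraries against 2 allow. The log2 ratio of SNORD1A to SNORD1C was −0.18 and −0.11 in 52X T4A and 0.38 and −0.53 in 52X WT, and the 52X WT libraries lay on either side (exact two-sided permutation test, p = 1). These were 3 ratios of the same counts, and an adjustment for their number could not lower any p.

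**Figure D4:**
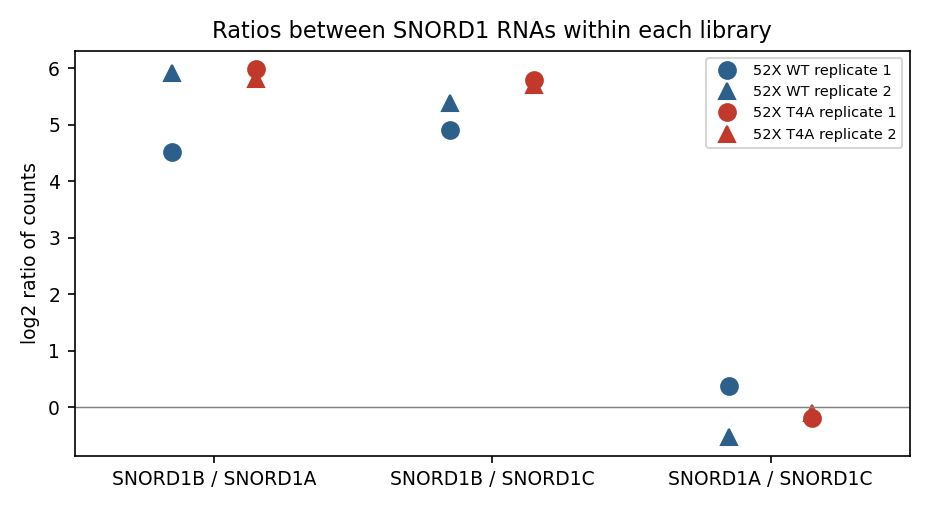
Log2 ratio of counts for each pair of SNORD1 RNAs within each library, with 52X WT in blue, 52X T4A in red, circles for replicate 1 and triangles for replicate 2. The red points lie close together for each pair, and 52X WT replicate 1 is apart for SNORD1B over SNORD1A (4.52).

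Summed over the family, the libraries of 52X T4A had 14079 and 8651 CPM and those of 52X WT had 12873 and 10953 CPM, so that the groups overlapped. The log2 ratio of the group means was −0.068, smaller than the replicate SD of 0.37 on the same scale. As SNORD1B made up most of this sum, the sum shows SNORD1B and hides its neighbours.

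C/D box snoRNAs of other noncoding host genes were listed to place the family. Of 29 listed RNAs 15 were found at their hosts in the tables and 14 were tested, and none was called in either direction. Their median log2 fold change was −0.060, with 5 above 0 and 9 below, over a range from −0.76 to 0.73. The median over all 187 tested C/D box snoRNAs was −0.16, with 66 above 0 and 121 below and none called, and that of all 1480 features was −0.045. The members had a median of −0.69, and all 3 were below 0, although SNORD1B was above 0 with upper quartile factors, with no factors and with factors from C/D box snoRNAs. With 3 members this median is the value of SNORD1C. Among the 142 more abundant C/D box snoRNAs, 18 had a lower fold change than SNORD1A and 26 a lower one than SNORD1C.

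SNHG1 is another noncoding gene whose introns release several C/D box snoRNAs. Of its 6 RNAs tested, 5 had a log2 fold change below 0 and none was called. SNORD30, the most abundant of them, was at 2453, 1673, 2458 and 2008 CPM in the order of libraries used above, with a log2 fold change of −0.11 ± 0.24 (SE). SNORD27 was at 97.8, 81.1, 185 and 117 CPM, with a log2 fold change of −0.76 ± 0.30 (SE) and an adjusted p of 0.421 in edgeR's test. The levels of RNAs from the SNHG1 host also differed widely, from 1.76 CPM per 100 bases for SNORD22 to 3068 for SNORD30.

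SNORD104, the RNA of SNHG25 and the next most abundant of the list after SNORD30, was at 1372, 1307, 1155 and 916 CPM. Its log2 fold change was 0.37 ± 0.21 (SE), with an adjusted p of 0.504 in edgeR's test. SNORD26 of SNHG1 followed at a mean of 773 CPM, with a log2 fold change of −0.042 ± 0.24 (SE). SNORD48 and SNORD52, both of SNHG32, had log2 fold changes of −0.61 ± 0.40 and −0.43 ± 0.36 (SE), and their log2 ratios of 52X WT replicate 1 to replicate 2 were 1.35 and 0.96. None of the listed GAS5 RNAs was found by symbol within the span of GAS5, and features there under other names were not sought. The tested features that carry symbols of GAS5 RNAs, such as SNORD44 and SNORD78, were not accepted at this host. They counted only among the 187 C/D box snoRNAs.

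**Figure D5:**
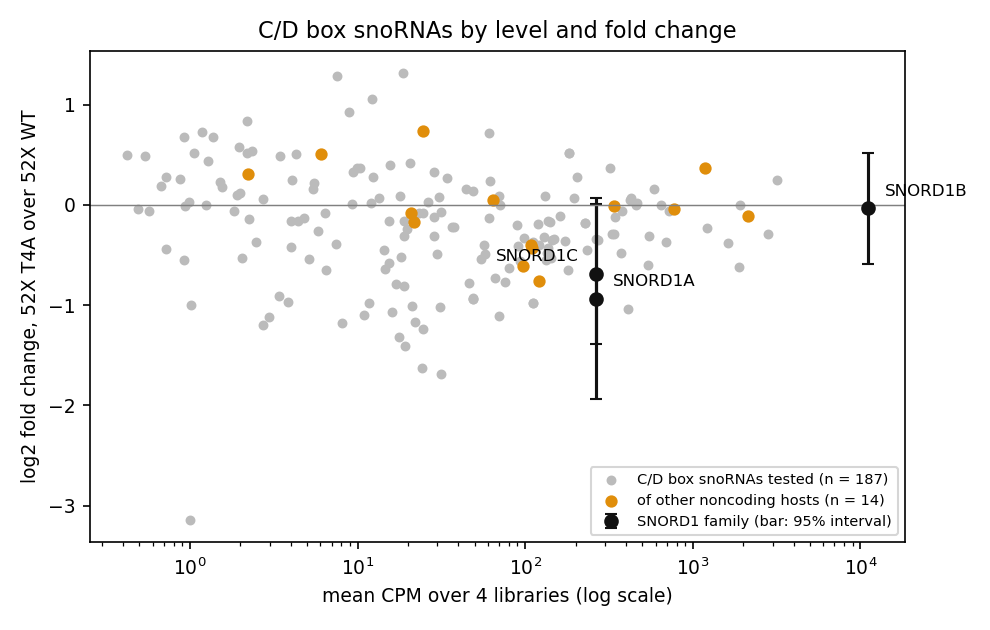
Log2 fold change of 52X T4A over 52X WT against the mean CPM over 4 libraries (log scale) for the 187 tested C/D box snoRNAs, with the 14 of other noncoding hosts in orange and the SNORD1 family in black with 95% intervals. SNORD1B is the point farthest to the right, and the intervals of all 3 members include 0.

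The C/D box snoRNAs with the most similar profile to each member were sought among the 142, by the Euclidean distance of log2 CPM centred over the 4 libraries. A distance of 0 means the same profile. The nearest to SNORD1B were SNORD30, SNORD57 and SNORD92, at distances of 0.15, 0.20 and 0.25. The nearest to SNORD1C were SNORD15A, SNORD61 and SNORD10, at 0.21, 0.23 and 0.24. The nearest to SNORD1A were SNORD45B and a pair of copies named SNORD45, at 0.062, 0.068 and 0.068. The 2 copies named SNORD45 had the same value in every library and cannot be told apart. SNORD45B was at 40.4, 27.1, 97.7 and 31.0 CPM against 40.2, 26.6, 97.4 and 30.8 CPM for each copy, in the order of libraries used above. It may therefore share reads with the copies and is not shown to be a separate match.

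The members were not each other's nearest RNAs. SNORD1C was the 43rd nearest to SNORD1A at a distance of 0.65, and SNORD1B was the 98th at 1.21. From SNORD1B, SNORD1C was the 73rd nearest at 0.70 and SNORD1A the 120th. From SNORD1C, SNORD1A was the 51st nearest and SNORD1B the 60th. With 4 libraries these distances describe the profiles and carry no test.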

How the data were processed

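Per the labels, total RNA was made into single-end small RNA libraries. The authors deposited raw read counts per feature for each library, with no normalization. Their processing notes name cutadapt 4.6, Bowtie2 2.3.5.1, featureCounts 1.5.0 and hg38. Settings for strand and for reads that match several places are not given in the sources used here.

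SNORD1B was named by its Ensembl identifier in GENCODE v44lift37, and SNORD1A and SNORD1C by RefSeq genes (GRCh38.p14) whose ends lay within 1 base. Of 7062 features, 5579 were named by identifier, 908 by an identical position and 23 within 1 base. No coordinates were converted.

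Counts were filtered with filterByExpr (minimum count 10), scaled with TMM factors and tested across all features by the quasi-likelihood F test in edgeR (version 4.0.16, run under R version 4.3.3) with Benjamini-Hochberg adjustment. The common biological coefficient of variation was 26%. Standard errors are the fold change over the root of F, and intervals use the t distribution with the degrees of freedom of the fit. DESeq2 (version 1.42.0), other scaling factors and filters, a robust fit, the replicate number as a block and the removal of each library were alternatives. The code of the test was also run on counts simulated with the same spread for all features, which says nothing on the spread between these libraries. CPM use TMM-scaled library sizes, log2 CPM a prior count of 1, and the tables, ratios and exact tests were made with scipy (version 1.17.1).

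RNAs were named by a rule: the members, the 5 most abundant C/D box snoRNAs, the 3 nearest profiles of each member, and those of listed noncoding hosts. A host's RNA was accepted only within the RefSeq span of that host, with a small margin at both ends. This condition was added after the data were seen. The sequence features were also chosen after the data were seen. Members and lists were chosen with earlier results of these data known. With 2 libraries per group, an exact permutation test cannot give a p below 0.333.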

Additional observations from a re-analysis of the deposited data

How the results depend on the processing

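Over 11 settings with all 4 libraries, the log2 fold change ran from −0.97 to −0.69 for SNORD1A (adjusted p from 0.0842 to 0.844), from −0.70 to −0.52 for SNORD1C (0.228 to 0.934) and from −0.074 to 0.12 for SNORD1B (0.862 to 0.996), and no member was called. For SNORD1B the sign turned under upper quartile factors (0.12), under no factors beyond library size (0.12) and under factors taken from C/D box snoRNAs (0.071). The summed family ran from −0.065 to 0.092 over 6 settings. These scalings shift every feature of a library by 1 value. The number of members called was 0 in each setting but 1, the removal of 52X WT replicate 2, which gave 2. Neither other threshold called a member, be it an adjusted p under 0.05 with no fold limit or one under 0.1 with a fold change over 1.5.

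Leaving out each library gave ranges of −1.52 to −0.048 for SNORD1A, −1.04 to −0.40 for SNORD1C, −0.45 to 0.29 for SNORD1B, −0.48 to 0.26 for the summed family (against −0.068 with all libraries), 0 to 2 for the number of members called, −0.017 to 1.38 for the SNORD1B to SNORD1A ratio and 0.37 to 0.85 for the SNORD1B to SNORD1C ratio. In these fits the lone library is assumed to vary like the other group, and the cause of the changes was not tested.

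With the replicate number as a block the log2 fold changes were −0.76 for SNORD1A, −0.074 for SNORD1B and −0.68 for SNORD1C, with adjusted p-values of 0.168, 0.964 and 0.228 in edgeR's test. No member was called, while the calls over all features went from 2 to 18. The labels do not say that a number marks a shared day or culture, and the pairing check, a correlation of deviations from the group mean, gave 0.091 over 1472 features. Over all features there were 9 calls under library size, 7 under factors from C/D box snoRNAs, 29 without a filter and 30 with DESeq2. Each member had at least 3273 counts in every library.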
